A study of Homo sapiens with 6 samples.

Results

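The distal part of the long arm of chromosome 13 was examined gene by gene in PC-3 cells, an established human prostate cancer cell line, with and without depletion of CdGAP. Its 113 genes (of 64253 in the count tables and 16439 tested) were chosen by position and level: a start on chromosome 13 at or beyond position 46553168 (GRCh38), the first base of LRCH1, and a mean of at least 1 CPM over the 6 libraries, where CPM is the read count scaled to a common library size. The position was itself selected on the difference between these groups, so the lower level shared by the members is described below without a test, and nothing is supported with it. Another 14 genes beyond that position were left out by name, among them RB1, KLF5 and IPO5. Of the 770 genes of the tables beyond it, 467 had no read, 177 had reads but a mean under 1 CPM, and all 113 members passed the filter on low counts.

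The shCdGAP group was made of 3 samples of PC-3 cells infected with lentivirus carrying a short hairpin RNA against CdGAP, the GTPase-activating protein encoded by ARHGAP31. The shCon group was made of 3 samples of PC-3 cells with a control hairpin. The methods describe puromycin selection of the depleted PC-3 cells and their growth from single cells into clones, and describe neither step for the control cells, so a difference between a clone and the control population cannot be told apart from an effect of the hairpin. Total RNA was sequenced. The methods call the 3 samples of each group independent, while the labels say nothing on separate cultures, so the standard errors measure the spread between these samples, which may in part be technical.

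The libraries held between 33182796 and 43154039 counted reads. ARHGAP31 was at 26.8 ± 0.351 CPM (SD, n = 3) in shCdGAP cells and at 59.2 ± 1.22 CPM (SD, n = 3) in shCon cells, a log2 fold change of -1.14 ± 0.0409 (SE; adjusted p = 8.75e-08, edgeR quasi-likelihood test). The epithelial genes KRT8, KRT18, EPCAM and CDH1 were read in every library, and KLK2, KLK3 and the leukocyte gene CD3E had none. PTPRC had at most 1 read and CDH5 at most 10, while PECAM1, COL1A1 and PDGFRB were read in every library. EPCAM was at 212 CPM in shCdGAP against 83.0 in shCon, COL1A1 at 57.1 against 18 and PDGFRB at 1.02 against 0.107, and their part in the results below was not tested. Some genes stood apart in shCdGAP replicate 2, where CDH1 had 50.5 CPM against 29.6 and 25.4 in replicates 1 and 3.

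Genes along a chromosome arm mostly have unrelated functions, and what they share is position. Neighbours can also share a promoter region that is read in both directions, overlap on opposite strands, or lie inside the transcript of a host gene. Distal 13q is known for the retinoblastoma gene, for ZIC2 and ZIC5, a pair of neighbouring zinc finger genes of the developing brain, and for clusters of microRNAs that are cut from the long non-coding transcripts DLEU2 and MIR17HG.

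Both microRNA hosts were members, and the microRNAs they carry show how many regulators are tied to them. The mature sequences (RefSeq, GRCh38.p14) are shown with the seed, bases 2 to 8, in capitals. Those of DLEU2 lie on the minus strand at chr13:50049167-50049188 for miR-15a-5p and chr13:50049027-50049048 for miR-16-5p. Those of MIR17HG lie on the plus strand between positions 91350618 and 91351382, inside its deposited bounds.
miR-15a-5p: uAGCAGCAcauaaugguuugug
miR-16-5p: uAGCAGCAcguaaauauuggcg
miR-17-5p: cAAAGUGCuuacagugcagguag
miR-20a-5p: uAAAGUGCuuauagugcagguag
miR-18a-5p: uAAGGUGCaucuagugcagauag
miR-19a-3p: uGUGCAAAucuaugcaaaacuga
miR-19b-3p: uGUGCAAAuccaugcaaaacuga
miR-92a-3p: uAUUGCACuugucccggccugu
The pairs miR-15a-5p and miR-16-5p, miR-17-5p and miR-20a-5p, and miR-19a-3p and miR-19b-3p share a seed, so the 8 microRNAs carry 5 seeds. The libraries counted gene transcripts and not mature microRNAs. Of the hairpins of these 8 microRNAs, only MIR16-1 was matched by symbol, and it had no read in any library. Other hairpins were not looked up.

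DLEU2 had 67, 70 and 50 reads in shCdGAP replicates 1, 2 and 3 and 269, 284 and 210 reads in shCon replicates 1, 2 and 3. Its log2 fold change, the value in shCdGAP over that in shCon, was -2.04 ± 0.110 (SE). MIR17HG had 58, 32 and 53 reads in shCdGAP and 165, 151 and 172 in shCon, a log2 fold change of -1.79 ± 0.260. In both hosts the 2 groups did not overlap, as in 32.7% of all tested genes with shCdGAP lower. For MIR17HG, shCdGAP replicate 2 was the lowest of its group, with 0.735 CPM against 1.43 and 1.54.

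A lower level in shCdGAP cells was shared by nearly all members. Of the 113, 111 had a log2 fold change below 0, where 49.1% of all tested genes did, and their median was -1.60, that is 33.0% of the shCon level. The median absolute deviation around it was 0.22, against 0.27 for the 13261 genes of the other chromosomes with at least 1 CPM, whose median was 0.00. The 102 genes of chromosome 13 that lie before LRCH1 had a median of -0.40 and a deviation of 0.30, with 86 lower and 16 higher. The members carried 0.133%, 0.139% and 0.131% of all counted reads in shCdGAP replicates 1, 2 and 3, and 0.392%, 0.390% and 0.391% in the shCon replicates. Each shCdGAP library therefore showed the lower share, with medians of -1.61, -1.55 and -1.62 against the mean of shCon, while single shCon libraries lay between -0.01 and 0.01. In bulk RNA, fewer cells that carry these transcripts and less RNA per cell cannot be told apart.

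**Figure D1:**
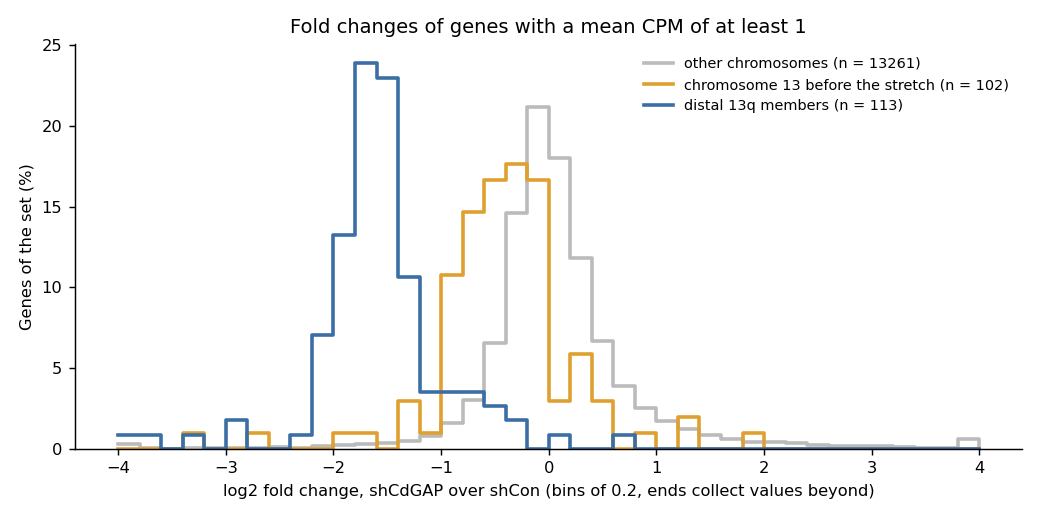
Distribution of log2 fold changes (x axis, bins of 0.2, with the end bins collecting values beyond) as a percentage of the genes of each set (y axis) for 113 distal 13q members, 102 genes of chromosome 13 before LRCH1 and 13261 genes of other chromosomes. The members peak near -1.60 with a few values beside the main body on either side.

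The study's thresholds ask for an adjusted p under 0.01 with a log2 fold change beyond 1 in either direction. By these, 98 members (86.7%) were called lower, against a background of 4.19% of all tested genes. No member was called higher, against 8.56% of all tested genes. The groups did not overlap, with shCdGAP lower, for 110 members (97.3%), against 32.7% of all tested genes, and with shCdGAP higher for SLITRK6 (background 34.4%). They overlapped for LINC03061 and for the non-coding gene ENSG00000275202. Since the position was placed with this contrast, these shares are given as a description only.

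Members at the limits of the choice looked as follows. Inside the start, LRCH1, ESD and SUCLA2 had log2 fold changes of -1.45, -1.64 and -1.91. Just outside it lay COG3 at -0.75, ZC3H13 at -0.77 and LCP1 at -3.23 ± 0.990 (SE). LCP1, a leukocyte actin-bundling protein that many tumour lines express, had 19.6 ± 25.3 CPM (SD, n = 3) in shCdGAP and 188 ± 2.78 in shCon, so its shCdGAP libraries differed among themselves by more than their mean. Just above the level minimum were RPL13AP25 (1.01 CPM, log2 fold change -0.66), GGACT (1.26 CPM, -1.25) and ENSG00000275202 (1.36 CPM, -0.37), and just under it MRPS31P4 (0.985 CPM, -1.17), ANKRD10-IT1 (0.892 CPM, -2.27) and DHRS12 (0.861 CPM, -0.54).

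Around the median of -1.60, 85 members (75.2%) lay within 0.5 on the log2 scale and are called followers here. Their values ran from -2.05 to -1.15. Above that band, 11 members lay between 0.5 and 1 from the median and 7 lay more than 1 above it. Below the band, 5 lay between 0.5 and 1 and 5 more than 1 from it. In each of the 28 members outside the band, all 3 shCdGAP libraries lay on the same side of the members' median in that library. These members were picked by their distance in the same libraries, so this agreement was largely set in advance and is no support. Among the 85 followers, 40 were farther than 2 standard errors from it, so the band holds members that differ from each other by more than the error of the fit. With a band of 0.3, 73 members followed.

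**Figure D2:**
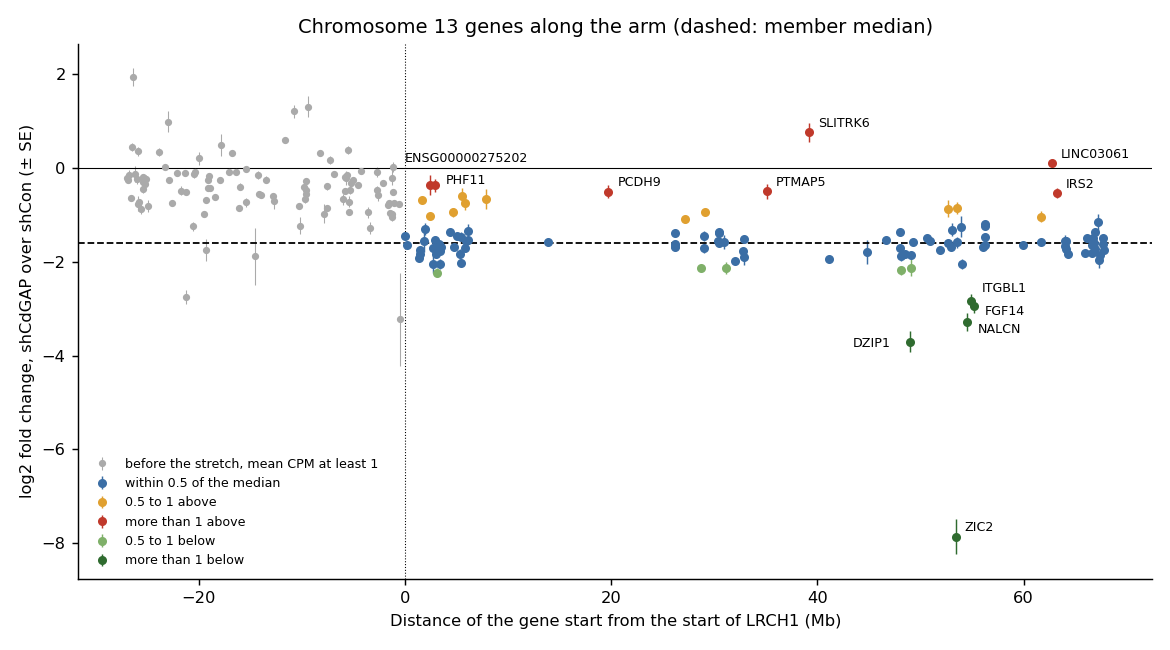
Log2 fold change with its SE (y axis) of each member and of each chromosome 13 gene before LRCH1 with a mean of at least 1 CPM. The x axis gives the distance of the gene start from the start of LRCH1 in megabases. Members are coloured by distance from the member median of -1.60 (dashed line), and genes left out by name are not drawn. Grey points before 0 scatter around a median of -0.40, and the named points are the 12 members more than 1 from the median.

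The followers closest to the median, among members with at least 20 CPM, come from unrelated pathways. UBAC2, a membrane protein of the endoplasmic reticulum, had 18.2, 20.8 and 16.6 CPM in shCdGAP replicates 1, 2 and 3 and 55.7, 55.4 and 58.0 CPM in shCon replicates 1, 2 and 3. Its log2 fold change was -1.60 ± 0.0760 (SE). CKAP2, a spindle protein, KCTD12, an auxiliary subunit of the GABA-B receptor, and RAP2A, a small GTPase of the Ras family, lay at -1.56 each, and ESD, a hydrolase of S-formylglutathione, at -1.64. KCTD12 had 41.4, 46.3 and 42.3 CPM in shCdGAP and 132, 126 and 125 in shCon. In all 5 of these genes the groups did not overlap, as in 97.3% of the members and 32.7% of all tested genes with shCdGAP lower.

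Sorted by function, every list of genes had its median between -1.79 and -1.47, so no list as a whole lay outside the band. The lists were written from the known roles of the genes, but with earlier results of these data known. A member stands in at most 1 of them. Some placements are a choice, with KCTD12 under protein turnover and the ubiquitin ligase OBI1 under gene regulation. In 3 lists every member was a follower. They were ubiquitin and protein turnover (14 of 14, median -1.61, from -1.84 to -1.31), RNA processing and decay (10 of 10, median -1.66, from -2.03 to -1.34), and mitochondrial and metabolic enzymes (11 of 11, median -1.64, from -1.91 to -1.25). Over all 113 members the share was 75.2%. It was 38.5% between 1 and 5 CPM, 85.4% between 5 and 20 CPM and 87.0% above. The lists were not compared at like level, so function and level are not separated here.

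Among the genes of protein turnover, CUL4A, the cullin scaffold of a large family of ubiquitin ligases, had 46.7, 46.8 and 45.3 CPM in shCdGAP and 142, 149 and 145 in shCon. Its log2 fold change was -1.65 ± 0.0376 (SE). MYCBP2, a very large ubiquitin ligase, had 48.9, 46.3 and 44.7 CPM against 125, 127 and 108, a log2 fold change of -1.36 ± 0.0661. Both were followers, with MYCBP2 at the upper side of the band. The summed level of the 14 genes was 250 CPM in shCdGAP and 747 CPM in shCon.

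In RNA processing, DIS3, the catalytic ribonuclease of the exosome, had 28.1, 27.2 and 26.0 CPM in shCdGAP and 86.6, 84.8 and 86.6 in shCon, a log2 fold change of -1.67 ± 0.0428. RBM26, an RNA-binding protein, lay at -1.77 ± 0.0513 and MBNL2, a splicing regulator of the muscleblind family, at -1.49 ± 0.0664. Of the enzymes, SUCLA2, a subunit of the mitochondrial succinyl-CoA ligase, was the lowest of its list at -1.91 ± 0.0555, with 17.3, 18.1 and 16 CPM in shCdGAP against 66.4, 65.3 and 62.3 in shCon. CARS2, the mitochondrial cysteinyl-tRNA synthetase, lay at -1.72 ± 0.0544. No library of one group reached the range of the other for any of these genes. The same held for 97.3% of the members and 32.7% of all tested genes with shCdGAP lower.

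The lists of cell division and of the secretory pathway followed with few exceptions. Of the 12 genes of cell division and the centrosome, 9 were followers (median -1.59). CDC16, a subunit of the anaphase-promoting complex, lay at -1.48 ± 0.0434 and SUGT1, a co-chaperone needed at the kinetochore, at -1.53 ± 0.0435. DZIP1 and SLAIN1 lay below the band and the kinase gene NEK3 above it. Of the 15 genes of the secretory pathway, lysosome and membrane traffic, 13 were followers (median -1.56). LAMP1, a membrane glycoprotein of the lysosome, had 67.9, 65.3 and 66.2 CPM in shCdGAP and 189, 189 and 185 in shCon, a log2 fold change of -1.5 ± 0.0348. TM9SF2, a membrane protein of the Golgi and endosomes, had 51.6, 57.7 and 50.7 against 170, 169 and 178, a log2 fold change of -1.69 ± 0.0541.

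ITM2B, whose product BRI2 is cut by furin on its way to the cell surface, was the exception above the band in that list. It had 62.6, 65.6 and 62.6 CPM in shCdGAP and 99.7, 105 and 99.9 in shCon, a log2 fold change of -0.67 ± 0.0402. Its shCdGAP level was thus 62.6% of that of shCon, against 35.5% for LAMP1. TBC1D4, a regulator of glucose transporter traffic, lay below the band at -2.13 ± 0.0639, with 19.9, 23.7 and 20.6 CPM against 93.3, 95.3 and 92.5.

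The lists of gene regulation and of signalling held more members outside the band. Of those, ZIC2, PHF11, FGF14, PCDH9, IRS2 and THSD1 had a mean under 5 CPM, where 38.5% of members were followers. KLF12, LIG4, LMO7, ITGBL1 and FNDC3A had more. The part of level in the difference between lists was not tested. Of the 11 genes of DNA repair and gene regulation, 6 were followers, 4 lay above and 1 below (median -1.47). MED4, a subunit of the Mediator complex, lay at -1.83 ± 0.0532 and OBI1, a ubiquitin ligase of replication origins, at -1.98 ± 0.0525. LMO7, a LIM domain protein, lay above the band at -0.95 ± 0.0548, with 27.1, 30.9 and 27.9 CPM in shCdGAP and 54.8, 55.3 and 55.7 in shCon. The others above it were KLF12, a transcription factor, at -1.10, LIG4, the DNA ligase of non-homologous end joining, at -1.03, and PHF11. Of the 14 genes of signalling, adhesion and the extracellular space, 8 were followers, 4 lay above and 2 below (median -1.59).

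Of the signalling followers, STK24, a kinase of the Ste20 family, had 25.6, 26.1 and 25 CPM in shCdGAP and 84.7, 87.9 and 87.0 in shCon, a log2 fold change of -1.76 ± 0.0403. RASA3, a GTPase-activating protein for Ras and Rap, lay at -1.86 ± 0.0694. FNDC3A, a protein with fibronectin domains, lay above the band at -1.03 ± 0.0401, with 37.2, 37.3 and 37.4 CPM in shCdGAP against 78.9, 75.3 and 74.3 in shCon. Its 3 shCdGAP libraries had an SD of 0.103 CPM, so no single library set its distance from the median. Of the 6 transporters, channels and receptors, 5 were followers (median -1.77). ABCC4, an exporter of cyclic nucleotides, lay at -1.83 ± 0.0667, ATP11A, a phospholipid flippase, at -1.49 ± 0.0499 and GPR180, a heptahelical membrane protein, at -1.70 ± 0.0763. The sixth was NALCN.

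**Figure D3:**
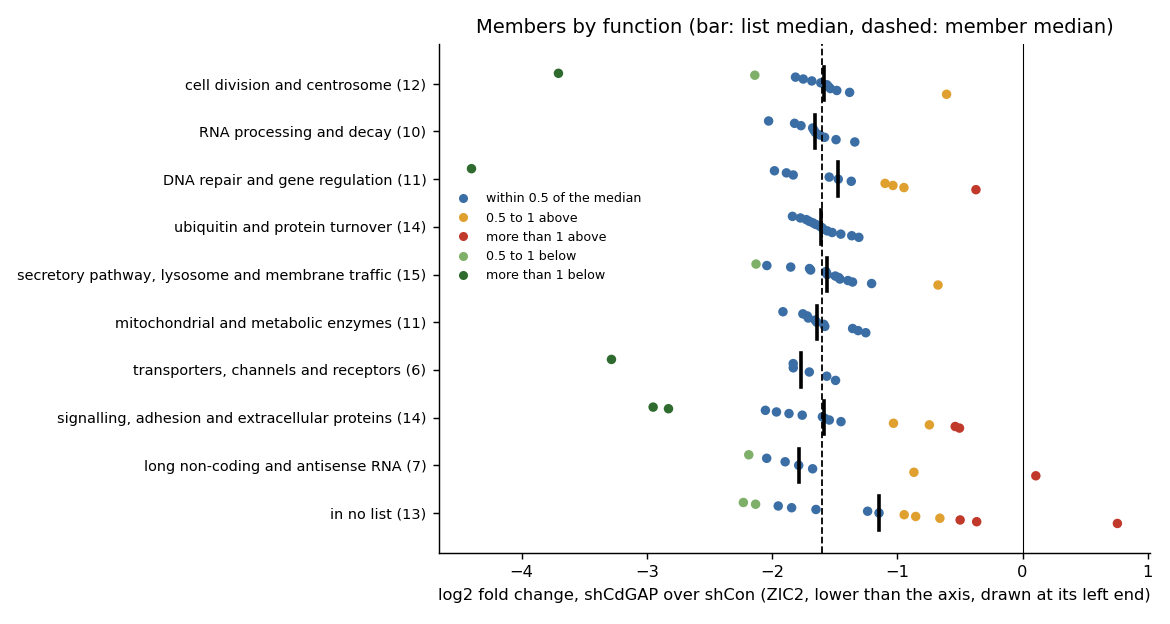
Log2 fold change (x axis) of each member, in rows by function with the number of members in brackets, coloured by distance from the member median of -1.60 (dashed line), with a bar at the median of each list. The lists of ubiquitin and protein turnover, RNA processing, and mitochondrial and metabolic enzymes hold followers alone, and ZIC2 at -7.86 is drawn at the left end of the axis.

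A group of 7 members stood more than 1 above the median. SLITRK6, a leucine-rich membrane protein of the nervous system and inner ear, had 2.86, 4.43 and 3.03 CPM in shCdGAP and 2.10, 1.73 and 2.33 in shCon, a log2 fold change of 0.76 ± 0.2 (SE). It was the only member for which every shCdGAP library was above every shCon library, as was so for 34.4% of all tested genes. Its relative SLITRK5, the nearest member beyond it on the arm, was a follower at -1.95 ± 0.0621. LINC03061, a long non-coding RNA, had 18.4, 14.7 and 16.8 CPM in shCdGAP and 16.4, 14.5 and 15.5 in shCon, a log2 fold change of 0.11 ± 0.0900, and its groups overlapped.

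The other 5 were lower in shCdGAP but by less than the shared amount. IRS2, an adaptor of the insulin receptor, had 3.68, 4.13 and 4.19 CPM in shCdGAP and 6.27, 5.64 and 5.48 in shCon, a log2 fold change of -0.54 ± 0.106. PCDH9, a protocadherin, had 2.44, 2.96 and 3.43 against 4.15, 4.36 and 3.97, a log2 fold change of -0.50 ± 0.139. For both, each shCdGAP library was below each shCon library, as for 32.7% of all tested genes. PHF11, a PHD finger protein, had 3.70, 2.69 and 3.00 CPM in shCdGAP and 4.20, 4.17 and 3.75 in shCon, a log2 fold change of -0.37 ± 0.140. It starts next to the end of SETDB2, a follower at -1.54 ± 0.0899. PTMAP5, a processed pseudogene of prothymosin alpha, had 2.86, 3.77 and 2.71 CPM against 4.05, 5 and 4.18 (-0.50 ± 0.155). Reads that fit both a pseudogene and its parent are not counted, so its level is uncertain, and the same holds for RPL13AP25 at -0.66 ± 0.222. ENSG00000275202, a non-coding gene that overlaps the start of FNDC3A on the other strand, had 0.937, 1.42 and 1.22 CPM against 1.84, 1.49 and 1.27 (-0.37 ± 0.212), and its groups overlapped.

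At the other end, 5 members stood more than 1 below the median. In shCdGAP, ZIC2, DZIP1, NALCN and FGF14 of these had means of 0.0153, 0.226, 0.446 and 0.721 CPM. They passed the level minimum of 1 CPM only through shCon. A gene lowered as much from a lower shCon level, such as ZIC5, is no member. ZIC2, a zinc finger transcription factor, had 0, 2 and 0 reads in shCdGAP replicates 1, 2 and 3 and 176, 212 and 157 reads in shCon replicates 1, 2 and 3. The total of 545 against 2 reads, corrected for library size, is a ratio of 275 (95% exact interval 75.9 to 2280, for counting error alone). Its fitted log2 fold change of -7.86 ± 0.381 depends on the settings of the fit and is no measure of size. DZIP1, a ciliary zinc finger protein, had 6, 13 and 8 reads in shCdGAP and 119, 130 and 103 in shCon, a log2 fold change of -3.71 ± 0.219. Both genes had over 100 reads in each shCon library and at most 13 in any shCdGAP library.

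The other 3 lie next to each other, between positions 101053776 and 102402457. NALCN, the sodium leak channel of neurons, had 0.419, 0.482 and 0.436 CPM in shCdGAP and 4.46, 5.02 and 3.60 in shCon, a log2 fold change of -3.28 ± 0.190 (SE). ITGBL1, a secreted protein with repeats like those of beta integrins, had 2.27, 3.49 and 2.30 against 19.5, 19.9 and 18.2, a log2 fold change of -2.83 ± 0.147. FGF14, an intracellular fibroblast growth factor that binds voltage-gated sodium channels, had 0.789, 0.735 and 0.640 against 5.22, 5.50 and 6.17, a log2 fold change of -2.95 ± 0.143. All 3 were read in every shCdGAP library, at 10.2%, 14.0% and 12.8% of the shCon level. ITGBL1 and FGF14 overlap on opposite strands, and the counting used the strand. The members on either side of this run did not share its level, with GGACT at -1.25 and TMTC4 at -2.04 before it and TPP2, a cytosolic peptidase, at -1.67 beyond it.

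**Figure D4:**
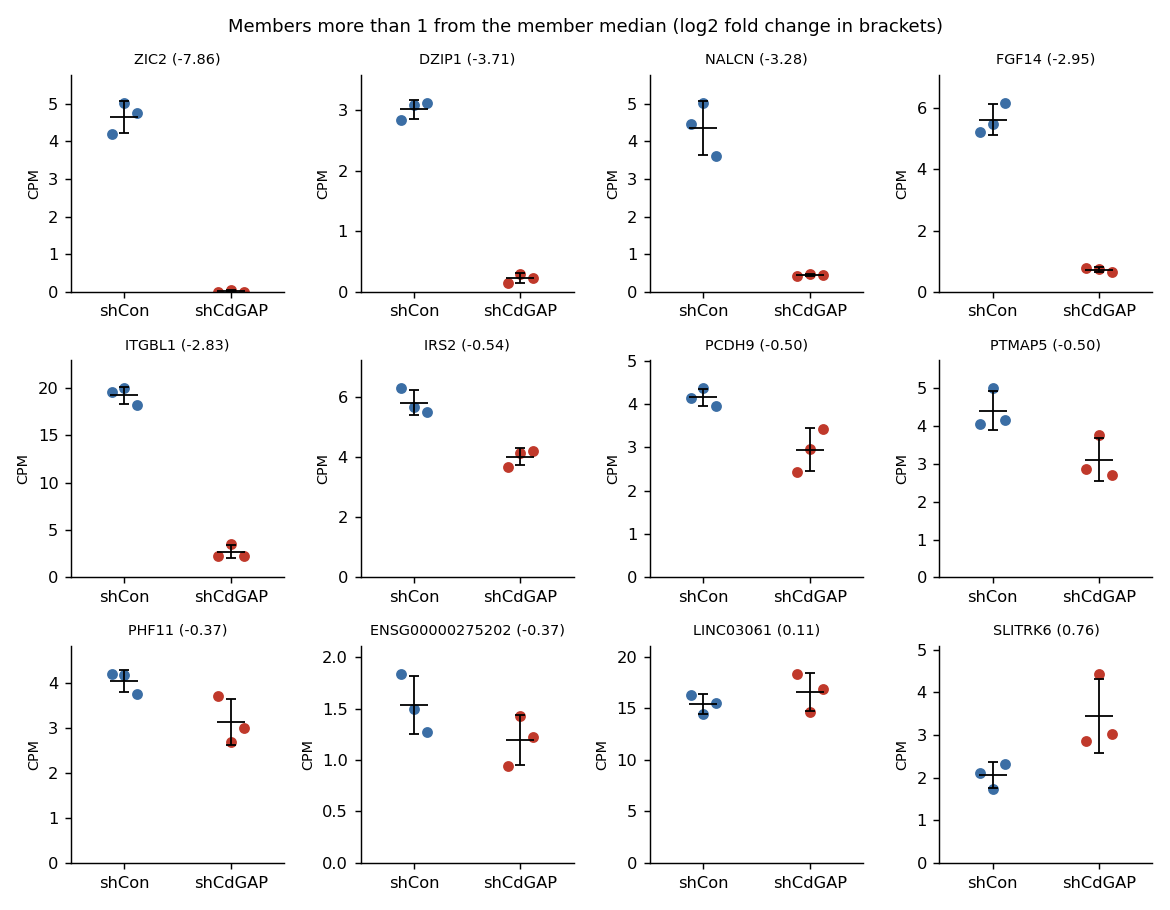
CPM (y axis, from 0, scaled for each gene) of the 12 members more than 1 from the member median in 3 shCon and 3 shCdGAP libraries (points), with the mean and SD (bars) and the log2 fold change in brackets. ZIC2, DZIP1, NALCN, FGF14 and ITGBL1 are at no more than 14.0% of their shCon mean in shCdGAP, and SLITRK6 is higher in all 3 shCdGAP libraries.

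The bases before the RefSeq start of SLITRK6 and ZIC2, the members farthest above and below the median, show how unlike these outliers are in sequence. Both are RefSeq sequence (GRCh38.p14), 250 bases before the RefSeq start in the direction of the gene, at chr13:85799420-85799669 on the minus strand for SLITRK6 and chr13:99981534-99981783 on the plus strand for ZIC2. Capitals mark letters that match the AP-1 motif TGACTCA or the GC box GGGCGG on either strand.
SLITRK6: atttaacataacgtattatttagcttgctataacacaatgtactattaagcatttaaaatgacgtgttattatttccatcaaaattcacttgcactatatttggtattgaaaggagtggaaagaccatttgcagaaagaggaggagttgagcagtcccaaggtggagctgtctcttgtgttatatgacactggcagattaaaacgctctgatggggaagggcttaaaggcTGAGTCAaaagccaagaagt
ZIC2: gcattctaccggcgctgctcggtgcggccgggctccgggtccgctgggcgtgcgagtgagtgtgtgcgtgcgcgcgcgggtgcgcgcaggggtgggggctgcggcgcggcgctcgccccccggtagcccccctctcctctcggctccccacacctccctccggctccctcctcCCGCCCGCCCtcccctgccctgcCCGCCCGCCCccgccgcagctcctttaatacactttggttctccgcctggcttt
By the deposited bounds, SLITRK6 starts at 85799488 and ZIC2 at 99981772. The last bases of both windows, with the AP-1 match of SLITRK6, thus lie inside the counted genes. The SLITRK6 window held 3 CG pairs and 1 AP-1 match. The ZIC2 window held 31 CG pairs and 4 GC boxes, which overlap in pairs. With 1 window per gene, the first listed, the median was 11 CG pairs over 27305 genes of any level and 23 over the 97 members with a window.

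Over the windows of the 27305 genes, the AP-1 letters occurred in 4.2% and the GC box in 42.3%. Among the 97 members, they occurred in 4.1% and 60.8%. The E-box CACCTG was in 16.5% of the members' windows and 17.5% of all, and the TATA box TATAAA in 5.2% and 11.1%. A match is a description of the letters in the window and no evidence that a factor binds there.

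Members that start beside each other on opposite strands, within 1000 bases by the deposited bounds, formed 16 pairs. In 10 pairs both genes code for protein, and in 9 of these both were followers, with a median difference of 0.33 between partners. DIS3 and PIBF1, a centrosomal protein, lay closest together at -1.67 and -1.61, and PCID2, an mRNA export factor, and CUL4A lay at -1.82 and -1.65. The exception was LIG4 at -1.03 ± 0.127 beside ABHD13 at -1.58 ± 0.0734, a difference of 0.54. These pairs were picked after the values were seen, and no difference between partners was tested. Of all members 75.2% were followers, as were 85.4% of those between 5 and 20 CPM and 87.0% of those above. The median absolute deviation of all members was 0.22. Differences between members that are not partners were not computed, so 0.33 is not read as closeness of partners.

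Of the 6 pairs with a non-coding partner, RBM26 and RBM26-AS1 were the 1 pair in which both were followers, and the median difference over the 6 was 0.48. All non-coding partners but SOX21-AS1 had means between 1 and 5 CPM. At that level 38.5% of members were followers and the median standard error was 0.175. The part of low counts in these differences was not tested. SOX21, a transcription factor gene, lay at -1.89 ± 0.0918 and SOX21-AS1 at -2.19 ± 0.0994. SOX21-AS1 had 1.92, 2.23 and 1.98 CPM in shCdGAP and 9.11, 9.53 and 9.35 in shCon. DNAJC3, a chaperone inhibitor of a stress kinase, lay at -1.85 ± 0.0659 and DNAJC3-DT at -2.13 ± 0.180, and RBM26-AS1 lay at -1.90 ± 0.173 beside RBM26. In these 3 pairs the estimate for the non-coding partner was the lower.

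In another 2 pairs the non-coding partner lay above the band while the coding gene followed. PCCA, a subunit of propionyl-CoA carboxylase, lay at -1.59 ± 0.118 and PCCA-DT at -0.85 ± 0.127. PCCA-DT had 2.37, 2.11 and 2.33 CPM in shCdGAP and 4.43, 4.22 and 3.60 in shCon. UBAC2-AS1 lay at -0.87 ± 0.175 against -1.60 for UBAC2, with 1.26, 0.987 and 1.05 CPM in shCdGAP against 2.31, 1.90 and 1.79 in shCon. In the last pair, ENSG00000275202 and FNDC3A, both lay above the band. Of the 7 long non-coding and antisense members 4 were followers, among them DLEU1 at -1.68 ± 0.0826, with LINC03061 and UBAC2-AS1 above and SOX21-AS1 below the band. PCCA-DT and DNAJC3-DT are among the 13 members in no list, of which 5 were followers, 6 lay above and 2 below (median -1.15).

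The remaining members between 0.5 and 1 above the median were FAM124A at -0.95 and THSD1, an endothelial thrombospondin-domain protein, at -0.74. The remaining one below was EBPL, a relative of the sterol isomerase EBP, at -2.23 ± 0.103, with 13.3, 16.3 and 11.6 CPM against 63.8, 66.0 and 64.5. SLAIN1, a microtubule plus-end protein, lay at -2.14 ± 0.123 with 7.42, 9.09 and 6.20 CPM against 36.3, 32.2 and 32.1.

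Distance from the median went with level. Of the 26 members with a mean between 1 and 5 CPM, 10 (38.5%) were followers and 10 lay more than 1 from the median. Of the 41 between 5 and 20 CPM, 35 (85.4%) were followers and 2, ITGBL1 and LINC03061, lay more than 1 from it. Of the 46 with at least 20 CPM, 40 (87.0%) were followers and none lay more than 1 from it. The median standard error was 0.175, 0.0860 and 0.0552 in the 3 bands, so the wider scatter of low members came with a larger error. The rank correlation of mean CPM with absolute distance was -0.41 over 113 genes, which share the same 6 libraries. Mean CPM takes in the shCdGAP libraries, so a larger drop itself lowers it, and the level minimum also shapes which low members are seen. The part of the counting error in the distance of the low members was not tested.

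**Figure D5:**
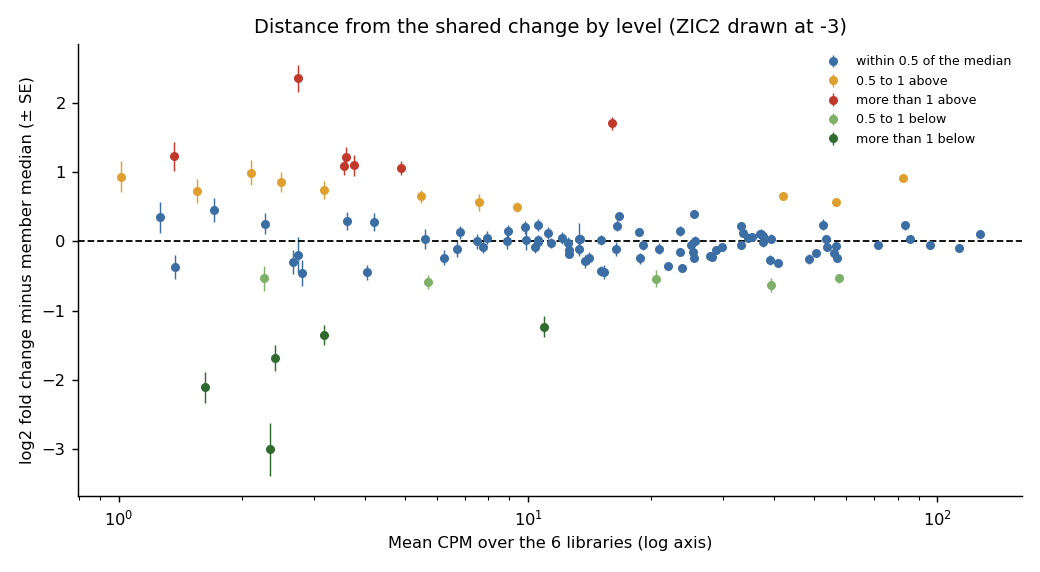
Distance of each member's log2 fold change from the member median with its SE (y axis) by mean CPM over the 6 libraries (x axis, log scale, not divided by gene length). All members with at least 20 CPM lie within 1 of the median, and ZIC2 is drawn at -3.

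Position along the arm and gene length went little with the fold change. The rank correlation of position with log2 fold change was -0.08 and that of exonic length with distance -0.04, over the same 113 genes. In windows of 10 Mb from the start of LRCH1, the median of the members lay between -1.84 and -1.56 in 6 of 7 windows. The exception, between 10 and 20 Mb, held 2 members, PCDH9 and the follower TDRD3, a reader of methylated arginine, at -1.58 ± 0.0786. The first window held 34 members, of which 8 lay above the band and 1 below. The window from 50 to 60 Mb held 4 of the members below the band, ZIC2 and the neighbours NALCN, ITGBL1 and FGF14, beside 15 followers. In the last window, 20 of 23 members were followers.

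Like tested genes in general, the members varied more between the shCdGAP libraries than between the shCon libraries. The median SD of log2 values was 0.116 in shCdGAP and 0.0477 in shCon, close to the 0.108 and 0.0552 of all 16439 tested genes. It was the wider in shCdGAP for 93 of 113 members (82.3%), against 70.8% of all tested genes. shCdGAP replicate 2 was the highest of its group for 67 members and replicates 1 and 3 for 21 and 25. The same count was not made over all tested genes, so it is not read as a trait of the members. Without shCdGAP replicate 2 the median of the members was -1.65. After MIR17HG, the widest spread in shCdGAP was that of LPAR6, a receptor for lysophosphatidic acid, with 5.50, 9.60 and 4.95 CPM in shCdGAP and 20.3, 18 and 21.6 in shCon (-1.56 ± 0.238). Replicate 2 was the highest for LPAR6 and the lowest for MIR17HG.

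The 13 tested genes that the choice left out by name lay in the same range. Their median was -1.60, from -2.04 for FARP1 to -1.0 for SPRY2, and all 13 were lower in shCdGAP. RB1 lay at -1.60, and MCF2L had no read in any library.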

How the data were processed

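The authors deposited raw read counts per gene, 1 table for each of the 6 libraries, with 64253 Ensembl genes. The methods give alignment by STAR 2.5.1b (GRCh38), counting by featureCounts 1.4.6 and a single-read kit. The file headers name featureCounts 1.6.0, Ensembl release 77 and stranded counting of read pairs. These options leave out multiply aligned reads and reads shared by genes that overlap on a strand, which lowers pseudogenes and nested genes.

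Counts were fitted here with edgeR 4.0.16 in R 4.3.3 (filterByExpr, TMM, robust quasi-likelihood F test, Benjamini-Hochberg over 16439 genes). SE is |log2 fold change| over the root of F. The scripts were tested on simulated counts. CPM uses TMM-adjusted library sizes. Symbols matched 56105 genes (87.3%).

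The members and the 9 gene lists were chosen with earlier results of these data known. Named genes were the members more than 1 from the median, the 6 closest to it with at least 20 CPM, the 3 of highest CPM in each list, and the 3 nearest each limit, of which 1 is not reported here. ENSG00000275202 and other members named here were added after their values were seen. Alternatives were other scalings, filters, DESeq2 1.42.0, other bands, a replicate block and leaving out each library. The lowest two-sided p of a permutation of 3 against 3 is 0.1, so none was run. The main fit did not pair the groups by sample number. Deviations from the group means correlated at 0.0306 to 0.0499 between same-numbered libraries and at -0.0741 to 0.0275 between the others. Whether a weak link joins same-numbered libraries was not tested.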

Additional observations from a re-analysis of the deposited data

How the results depend on the processing

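Scaling by RLE, by upper quartile, by library totals or by genes outside chromosome 13, DESeq2, no filter on low counts and a prior count of 2 left the members' median between -1.61 and -1.57 and the same 12 members more than 1 from it. With 10 reads required in every library, 3 members lay more than 1 below the median, since ZIC2 and DZIP1 were no longer fitted. With a minimum of 5 CPM, 87 members were left, with 1 more than 1 above and 1 more than 1 below the median, since most of those members have low levels. With a distance of 0.7 in place of 1, 13 members lay above. With single libraries left out, the median ranged from -1.65 (without shCdGAP replicate 2) to -1.59, the members lower in shCdGAP stayed at 111, followers ranged from 84 to 88, members more than 1 above from 6 to 9, those more than 1 below stayed at 5, members called lower ranged from 97 to 99, and those called higher stayed at 0. NEK3 and RPL13AP25 joined those more than 1 above in some of these fits, PTMAP5 left without shCdGAP replicate 2 and PCDH9 without shCdGAP replicate 3. The log2 fold change of ARHGAP31 ranged from -1.17 to -1.14 in these fits and from -1.17 to -1.12 over all alternatives. With the replicate number as a block, the median was -1.60, with 111 members lower, 85 followers and the same 98 called lower. Of the 44 named members, 10 moved by more than the spread between replicates in at least 1 alternative, and the fitted value of ZIC2 ranged from -10.5 to -6.12.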

Other observations

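Genes beyond the start of LRCH1 with a mean under 1 CPM showed the same direction with more scatter. Of the 23 that were tested, 20 were lower and 3 higher in shCdGAP, around a median of -1.33 with an absolute deviation of 0.80 (median, log2 scale). ZIC5, a zinc finger gene beside ZIC2, had 0, 0 and 0 reads in shCdGAP and 33, 30 and 30 in shCon, at least 10.5-fold lower against a floor of 3 reads per library. DACH1, a transcriptional cofactor of development, had 5, 8 and 6 reads in shCdGAP and 71, 41 and 32 in shCon. CLDN10, a claudin that overlaps DZIP1 on the other strand, had 0, 5 and 0 reads against 11, 13 and 12. PRECSIT, a long non-coding RNA, was the other way, with 41, 29 and 40 reads in shCdGAP and 21, 8 and 8 in shCon. These genes were picked after their values were seen.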
